A study of Mus musculus with 12 samples.

Results

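The genes described here encode 10 proteins that hepatocytes secrete into plasma: serpins, heavy chains of inter-alpha inhibitors and carriers of heme, copper, iron and hormones. They were listed by symbol, with earlier results of these data known, and fall into 2 sets by how their plasma levels move in an acute phase response. The 6 positive genes are Serpina3n, Serpina3m, Itih3, Itih4, Hpx and Cp, and the 4 negative genes are Alb, Ttr, Trf and Serpina6. All 10 were found among the 51912 genes of the deposited count table and among the 17859 genes of the deposited transformed table. All 10 also passed the filter on low counts that left 8594 genes for testing.

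The acute phase response is a change in what the liver secretes after infection or injury. Cytokines such as interleukin 6 and interleukin 1 reach hepatocytes and act through STAT3, C/EBP and NF-kB factors, and transcripts of positive acute phase proteins accumulate. Transcripts of negative acute phase proteins, among them albumin, decline in the same response.

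Liver RNA came from 12 adult male mice, 3 in each of 4 groups, with 1 library per mouse. The wild-type (WT) groups received either corn oil or CITCO, an agonist of the human constitutive androstane receptor CAR. In hCAR/hPXR mice the human receptors CAR and PXR replace the mouse ones. Mouse Car is deleted in Car KO/hPXR mice, whose PXR is human, and both of these groups received CITCO. The study cites in vitro work that proposes human PXR as another target of CITCO. By the study's methods the deleted and humanised lines were made on a C57BL/6NTac background. CITCO was injected into the abdomen at 10 mg/kg each day for 4 days, and livers were taken on day 5. No humanised mouse given corn oil is among the 12 libraries, so genotype and response to CITCO cannot be told apart in the humanised groups. Below, hCAR/hPXR and Car KO/hPXR libraries are always those from mice given CITCO.

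The labels name a QuantSeq kit for 3' mRNA. WT corn oil replicates 1, 2 and 3 held 2341557, 1451203 and 1600691 counts, and WT CITCO replicates held 1577702, 1654436 and 1370330. The hCAR/hPXR libraries held 2012805, 1726056 and 1167008 counts, and the Car KO/hPXR libraries 1499487, 1255186 and 1172224. Levels are given as CPM, counts scaled by TMM to a library size of 1e6. A count of 3, taken as the floor, corresponded to between 1.34 and 2.505 CPM, which covers counting error only. The 10 genes together took between 3.58% and 5.55% of the counts of a library.

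Mouse Nr1i2 (PXR) and Nr1i3 (CAR) were read first in each library, because counts were made on mouse genes. Nr1i2 had counts of 199, 100 and 155 in WT corn oil, 114, 113 and 126 in WT CITCO, 0, 1 and 0 in hCAR/hPXR and 2, 0 and 0 in Car KO/hPXR libraries. Nr1i3 had counts of 287, 104 and 215 in WT corn oil, 184, 116 and 207 in WT CITCO, 2, 0 and 6 in hCAR/hPXR and 3, 2 and 5 in Car KO/hPXR libraries. Each library therefore matched its label as WT or humanised at these 2 genes, although Nr1i3 overlaps Tomm40l on the opposite strand. Neither gene can tell hCAR/hPXR from Car KO/hPXR libraries, since both lines lack the mouse genes. Cyp2b10, a target gene of CAR, had counts of 281, 288 and 184 in the hCAR/hPXR libraries and at most 6 in any other library. As a check of the tissue, all 8 listed hepatocyte markers were detected in every library, with Apoa1 the most abundant. Their sums were 9547 and 9104 CPM in hCAR/hPXR replicates 1 and 2, the lowest, and from 10283 to 11849.9 in the other 10 libraries.

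Hpx, Itih4 and Itih3 are 3 positive genes whose levels were high and low in much the same libraries. Hpx encodes hemopexin, which binds free heme in plasma. Itih4 and Itih3 encode inter-alpha-trypsin inhibitor heavy chains, and Itih3 protein can be bound to hyaluronan in the extracellular matrix. The promoters of these genes are shown, together with that of Alb from the negative set, because the 3 positive genes moved together. Each window ran from 250 bases before to 50 bases after a RefSeq start site (GRCm38.p6). Windows were searched for 6 of the 10 genes: Serpina3n, Itih3, Itih4, Hpx, Cp (2 windows) and Alb. Those of Serpina3m, Ttr, Trf and Serpina6 were not searched, so Alb is the only negative gene with a window here. Capitals mark matches to a STAT motif (TTCNNNGAA), a C/EBP motif (TTNNGNAA) or an HNF1 motif (GTTAATNAT), searched on both strands. The Itih4 window is chr14:30886226-30886525 (plus strand), that of Hpx is chr7:105600067-105600366 (minus strand), that of Itih3 is chr14:30923538-30923837 (minus strand) and that of Alb is chr5:90460620-90460919 (plus strand).
Itih4: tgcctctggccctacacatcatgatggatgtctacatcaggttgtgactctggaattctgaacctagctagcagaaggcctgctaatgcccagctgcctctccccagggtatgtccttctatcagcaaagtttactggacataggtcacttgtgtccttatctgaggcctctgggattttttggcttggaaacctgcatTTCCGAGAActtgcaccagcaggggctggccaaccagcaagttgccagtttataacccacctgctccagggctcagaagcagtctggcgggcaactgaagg
Hpx: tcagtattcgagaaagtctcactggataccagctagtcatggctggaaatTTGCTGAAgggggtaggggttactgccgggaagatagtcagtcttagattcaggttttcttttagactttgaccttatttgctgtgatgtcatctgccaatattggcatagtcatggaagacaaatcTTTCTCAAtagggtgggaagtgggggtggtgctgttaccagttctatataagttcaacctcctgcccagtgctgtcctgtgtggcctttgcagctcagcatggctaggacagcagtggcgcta
Itih3: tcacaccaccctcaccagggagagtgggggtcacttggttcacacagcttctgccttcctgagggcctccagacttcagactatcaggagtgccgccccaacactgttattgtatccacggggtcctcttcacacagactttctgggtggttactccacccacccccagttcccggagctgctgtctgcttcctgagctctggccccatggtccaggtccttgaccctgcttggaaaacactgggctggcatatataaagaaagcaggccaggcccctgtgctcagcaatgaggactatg
Alb: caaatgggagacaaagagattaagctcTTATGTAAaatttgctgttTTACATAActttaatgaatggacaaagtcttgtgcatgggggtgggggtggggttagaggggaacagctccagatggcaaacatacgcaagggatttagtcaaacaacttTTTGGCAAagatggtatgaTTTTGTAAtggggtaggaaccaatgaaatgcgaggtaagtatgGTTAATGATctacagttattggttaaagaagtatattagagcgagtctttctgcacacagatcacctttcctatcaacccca
The Itih4 window holds 1 STAT match, starting at -51 from the start site. The Hpx window holds 2 C/EBP matches, at -200 and -73, and the Itih3 window holds no match to these letters. Alb has 4 C/EBP matches, at -223, -204, -94 and -75, and 1 HNF1 match at -32. Over the 7 windows of the 6 genes, 1 held the STAT motif, 5 the C/EBP motif and 2 the HNF1 motif. Among 32851 promoters of the same length, 8.30% held the STAT motif, 40.7% the C/EBP motif and 0.801% the HNF1 motif. A match is a description of the letters and was not tested as a binding site.

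Hpx (chromosome 7 of GRCm38, 105591613 to 105600137) stood at 1563, 1680.3 and 1408 CPM in WT corn oil replicates 1, 2 and 3. WT CITCO replicates had 3065, 2518 and 1461 CPM of Hpx, hCAR/hPXR replicates 4523, 1978 and 4191, and Car KO/hPXR replicates 1408, 1899.6 and 1434. hCAR/hPXR replicates 1 and 3 lay above every other library. hCAR/hPXR replicate 2 lay above all corn oil and Car KO/hPXR libraries but below WT CITCO replicates 1 and 2, and WT CITCO replicate 3 lay inside the corn oil range. In bulk tissue, fewer cells of a type and less RNA per cell cannot be told apart, here or for the genes that follow.

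Itih4 (chromosome 14, 30886476 to 30902353) had 544, 755 and 488 CPM in WT corn oil and 1128, 932 and 603 in WT CITCO libraries. Levels of Itih4 in hCAR/hPXR libraries were 1573, 834 and 1425 CPM, and in Car KO/hPXR libraries 667, 715 and 555. The same libraries were high and low as for Hpx: hCAR/hPXR replicates 1 and 3 were above all others, and hCAR/hPXR replicate 2 was below WT CITCO replicates 1 and 2. Itih3 (chromosome 14, 30908572 to 30923760, next to Itih4) had 364, 364 and 298 CPM in WT corn oil, 396, 372 and 341 in WT CITCO, 700.5, 371 and 633 in hCAR/hPXR and 373, 364 and 287 in Car KO/hPXR libraries. For Itih3 too, hCAR/hPXR replicates 1 and 3 were the highest, while replicate 2 lay among the WT CITCO libraries. Pearson's r of log2 CPM over the 12 libraries was 0.97 between Itih4 and Hpx, 0.90 between Itih3 and Itih4 and 0.90 between Itih3 and Hpx. After each group's mean was subtracted, r was 0.93, 0.83 and 0.82. Without that subtraction, r with these 3 genes was 0.66 to 0.83 for Cp, 0.54 to 0.67 for Serpina3n and 0.19 to 0.43 for Serpina3m. These are descriptions of 12 libraries that share their groups, without a test.

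Against WT corn oil, the hCAR/hPXR group had higher Hpx and Itih4, and this comparison differs in both genotype and treatment. Hpx was at 3564 ± 1383 CPM in hCAR/hPXR and 1550.4 ± 137 in WT corn oil livers (n = 3 mice each, SD). The log2 fold change was 1.20 (SE 0.28, adjusted p = 0.0486 in edgeR), and 3 of 3 libraries were higher. Itih4 was at 1277 ± 391 and 596 ± 141 CPM (n = 3 mice each, SD), with a log2 fold change of 1.10 (SE 0.25, adjusted p = 0.0387 in edgeR), also higher in 3 of 3 libraries. Itih3 did not pass the threshold, with a log2 fold change of 0.73 (SE 0.20, adjusted p = 0.1003 in edgeR), though its 3 hCAR/hPXR libraries lay above the corn oil libraries. DESeq2 called all 3 genes, Itih3 included. The edgeR calls depended on the size factors, the fit and single libraries. With all 12 libraries, Hpx lost its call under DESeq2's size factors (RLE, adjusted p = 0.0525), with a replicate block (0.0547) and in limma (0.107). When only the 2 groups compared were fitted, edgeR called neither Hpx (0.0551) nor Itih4 (0.0520). In edgeR, Hpx also lost its call without WT corn oil replicate 1, 2 or 3 (adjusted p = 0.138, 0.156 and 0.221) and without hCAR/hPXR replicate 1 or 3 (0.227 and 0.183). Itih4 lost it without the same libraries, at 0.144, 0.0595 and 0.216 for the corn oil replicates and 0.204 and 0.144 for the hCAR/hPXR replicates. Without hCAR/hPXR replicate 2, adjusted p was 0.00554 for Hpx, 0.00988 for Itih4 and 0.00783 for Itih3, which was then called. Over all alternatives adjusted p ranged from 5.56e-07 to 0.227 for Hpx, from 1.86e-06 to 0.216 for Itih4 and from 0.00783 to 0.433 for Itih3.

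Comparing the humanised groups, hCAR/hPXR over Car KO/hPXR gave a fold of 2.25 for Hpx and log2 differences of 0.98 (SE 0.25) for Itih4 and 0.73 (SE 0.20) for Itih3. Adjusted p-values in edgeR were 0.0673, 0.0853 and 0.118 for Hpx, Itih4 and Itih3, so none was called, and the hCAR/hPXR libraries lay above the Car KO/hPXR libraries for Hpx and Itih4. DESeq2 called all 3, and edgeR called all 3 when hCAR/hPXR replicate 2 was left out (adjusted p = 0.0109, 0.0265 and 0.0109, in the same order). Adjusted p over all alternatives ran from 9.28e-07 to 0.305 for Hpx, from 3.70e-05 to 0.381 for Itih4 and from 0.00842 to 0.471 for Itih3. Relative to WT CITCO livers, the log2 differences of the hCAR/hPXR group were 0.60 for Hpx, 0.52 for Itih4 and 0.62 for Itih3, with overlapping libraries and adjusted p of 0.558, 0.560 and 0.266 in edgeR. Here too Itih3 was called without hCAR/hPXR replicate 2, at a log2 difference of 0.85 and an adjusted p of 0.0382, against a range of 0.0382 to 0.629 over its alternatives.

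**Figure D1:**
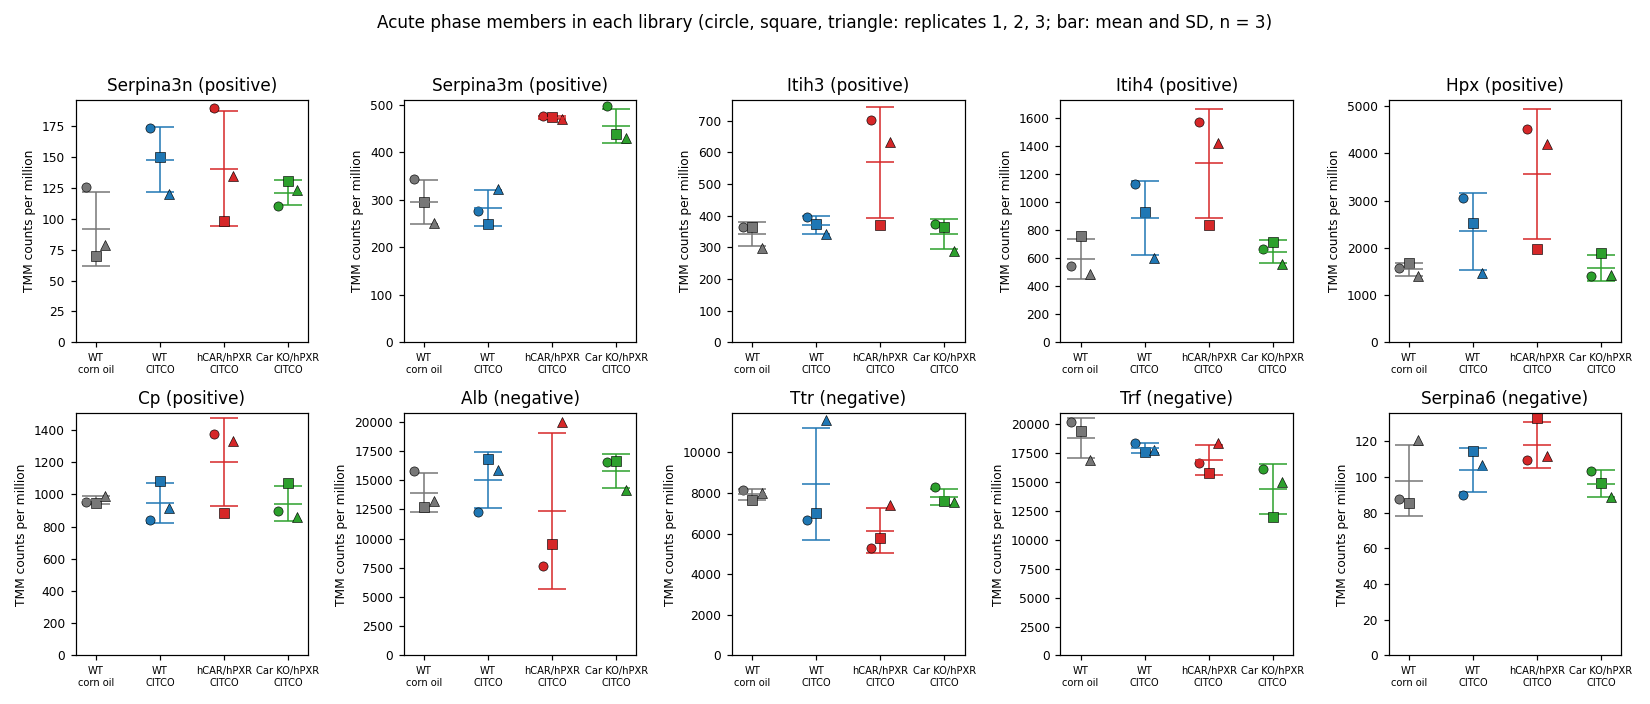
Level of each of the 10 genes in every library (vertical axes, TMM-scaled CPM, from 0), by group (horizontal axes); circles, squares and triangles are replicates 1, 2 and 3, and bars give mean and SD of 3 mice. For Hpx, hCAR/hPXR replicates 1 and 3 stand at 4523 and 4191 and replicate 2 at 1978, while the 6 hCAR/hPXR and Car KO/hPXR libraries of Serpina3m all lie above the 6 WT libraries.

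Serpina3m belongs to the cluster of Serpina3 genes on chromosome 12 (104338486 to 104394257), mouse relatives of the human protease inhibitor gene SERPINA3. It had 343, 295 and 251 CPM in WT corn oil and 277, 248 and 322 in WT CITCO libraries. The hCAR/hPXR libraries had 476, 474 and 469.6 CPM of Serpina3m, and the Car KO/hPXR libraries had 497, 438 and 431. The 6 humanised libraries lay above the 6 WT libraries. It was the only gene of the 10 with this separation (1 of 10), which 0.337% of the 8594 genes tested showed in either direction.

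In mice given CITCO, Serpina3m was higher in hCAR/hPXR than in WT livers, at 473 ± 3.19 against 282 ± 37.3 CPM (SD, n = 3 each). The log2 fold change was 0.74 (SE 0.15, adjusted p = 0.0370, edgeR), with 3 of 3 libraries higher. In edgeR the call was lost without WT CITCO replicate 1 (adjusted p = 0.174) or 2 (0.241) and without hCAR/hPXR replicate 1 (0.122), 2 (0.0831) or 3 (0.119). It was also lost when only the 2 groups compared were fitted (0.0802), and kept without WT CITCO replicate 3 (0.0410). Over all alternatives adjusted p ran from 0.000149 to 0.241 and the log2 fold change from 0.64 to 0.84. Car KO/hPXR livers, at 456 ± 36.4 CPM, had a log2 difference of 0.69 from WT CITCO (SE 0.15) that edgeR did not call (adjusted p = 0.0695). This was called without WT CITCO replicate 3 (0.0425), within a range of 0.000635 to 0.337 over all alternatives. Between the 2 humanised groups Serpina3m differed by 0.05 on the log2 scale (SE 0.15, adjusted p = 0.936, edgeR), with overlapping libraries. Compared with WT corn oil, hCAR/hPXR livers had a log2 fold change of 0.67 (SE 0.15, adjusted p = 0.0387, edgeR). Its call was lost without WT corn oil replicate 2 (0.177) or 3 (0.231) and without hCAR/hPXR replicate 1 (0.138), 2 (0.0805) or 3 (0.107), and when only the 2 groups compared were fitted (0.0611), within a range of 0.000834 to 0.231. WT livers with and without CITCO differed by -0.07 (SE 0.15) with overlapping libraries.

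The Serpina3 genes are related in sequence, and the annotated interval of Serpina3m overlaps all of Serpina3k (104338486 to 104346144) on the same strand. Serpina3k made up 95.98% to 98.5% of all Serpina3 counts in a library. Of 1610 windows of 50 bases along the Serpina3m transcript, 257 (15.96%) also occur in Serpina3k, 32 (1.99%) in Serpina3c, 18 (1.12%) in Serpina3n and 1 in Serpina3a, and 0 in the other Serpina3 genes. In the last 300 bases of each of the 10 genes, 0 of 251 windows occur in another gene. Where along the transcripts the reads fell was not measured. Serpina3k had 23265 ± 1323 CPM in WT corn oil, 21798 ± 3517 in WT CITCO, 20105 ± 6049 in hCAR/hPXR and 21594 ± 3166 in Car KO/hPXR livers (SD, n = 3 each). Pearson's r between Serpina3m and Serpina3k was -0.35 over the 12 libraries, a description without a test. Summed over the 8 Serpina3 genes with counts, the level lay between 15422 and 27273 CPM. Serpina3m made up 1.05% to 3.05% of the Serpina3 counts in a library. The sum therefore follows Serpina3k and cannot show whether Serpina3m changed. The sum differed between hCAR/hPXR and WT CITCO by -0.10 on the log2 scale (SE 0.23, adjusted p = 0.931, edgeR), and by 0.07 without hCAR/hPXR replicate 3, with adjusted p from 0.727 to 1 over all alternatives.

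**Figure D2:**
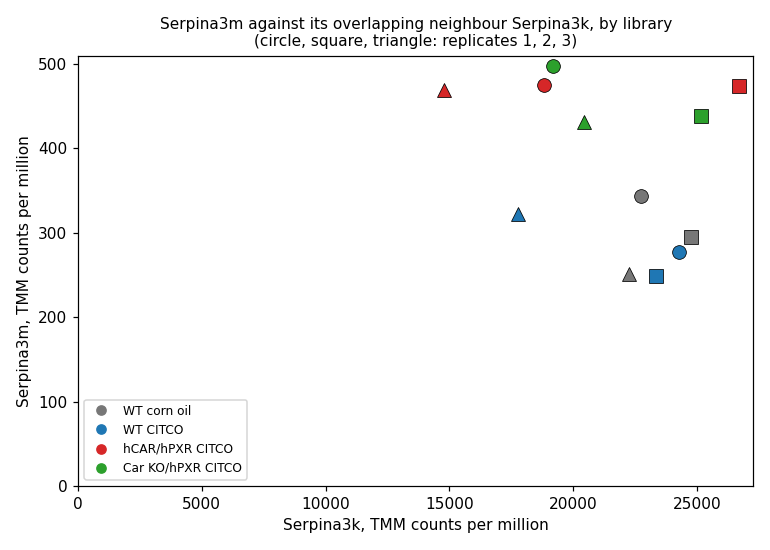
Serpina3m (vertical axis) against Serpina3k (horizontal axis), both in TMM-scaled CPM, with 1 point per library and shapes for replicates 1, 2 and 3. The humanised libraries lie between 431 and 497 on the vertical axis and the WT libraries between 248 and 343, while Serpina3k ranges from 14800.0 to 26693 with the groups mixed.

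Serpina3n (chromosome 12, 104406729 to 104414329) encodes a secreted inhibitor of serine proteases. Its level was 126, 69.8 and 79.1 CPM in WT corn oil, 173, 150.0 and 120.3 in WT CITCO, 189.6, 97.8 and 134 in hCAR/hPXR and 109.9, 130.3 and 123 in Car KO/hPXR libraries. WT CITCO livers were on average the highest, corn oil livers the lowest, and WT corn oil replicate 1 lay inside the range of the CITCO groups. The log2 difference between WT CITCO and WT corn oil was 0.68 (SE 0.24, adjusted p = 0.346, edgeR), and that between hCAR/hPXR and WT corn oil 0.61 (SE 0.24, adjusted p = 0.325). Neither passed the threshold. Cp encodes ceruloplasmin, a copper-binding ferroxidase, on chromosome 3 (19957054 to 20009145), where its 3' part overlaps Hps3 on the opposite strand. Cp stood at 1379 and 1335 CPM in hCAR/hPXR replicates 1 and 3, the highest of the 12 libraries, and at 887 in replicate 2. The other groups averaged 963 ± 25.0 (WT corn oil), 945 ± 125 (WT CITCO) and 943 ± 110.3 CPM (Car KO/hPXR; SD, n = 3 each). The log2 differences of Cp in the 5 comparisons lay between -0.03 and 0.35, and none passed the threshold in edgeR.

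The negative genes are Alb (albumin, which carries fatty acids and hormones), Ttr (transthyretin, which carries thyroid hormone and retinol-binding protein), Trf (transferrin, which carries iron) and Serpina6 (corticosteroid-binding globulin). Alb (chromosome 5, 90460897 to 90476602) was at 15807, 12706 and 13187 CPM in WT corn oil and 12292, 16817 and 15853 in WT CITCO libraries. The hCAR/hPXR replicates had 7649, 9498 and 20005.5 CPM of Alb, and the Car KO/hPXR replicates 16549.5, 16641 and 14129.9. hCAR/hPXR replicates 1 and 2 were the lowest of the 12 libraries and replicate 3 was the highest, so the group spanned all others. hCAR/hPXR replicates 1 and 2 were also the lowest for Ttr and for the sum of the hepatocyte markers given above, and what these have to do with one another was not tested. Between hCAR/hPXR and Car KO/hPXR the log2 difference of Alb was -0.35 (SE 0.28, adjusted p = 0.735, edgeR). Leaving out hCAR/hPXR replicate 3 gave -0.88, leaving out replicate 1 gave -0.10, and neither passed the threshold.

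Ttr ranged from 5289.8 to 11597 CPM over the 12 libraries, the highest being WT CITCO replicate 3. Its hCAR/hPXR libraries (5289.8, 5759 and 7385 CPM) lay below the corn oil and the Car KO/hPXR libraries, with log2 differences of -0.37 (SE 0.22, adjusted p = 0.588) and -0.35 (SE 0.22, adjusted p = 0.618) in edgeR. Trf ranged from 11994 to 20147 CPM. The Car KO/hPXR libraries of Trf (16115.5, 11994 and 15022 CPM) lay below those of WT CITCO (18394, 17599 and 17757), with a log2 difference of -0.32 (SE 0.19, adjusted p = 0.640, edgeR). Trf overlaps the annotated gene Gm20425 on the same strand. Serpina6 had between 85.3 and 133 CPM, and its hCAR/hPXR libraries lay above those of Car KO/hPXR, with a log2 difference of 0.29 (SE 0.17, adjusted p = 0.602, edgeR). No negative gene was called by edgeR in any of the 5 comparisons or across the 4 groups, and 0 of the 4 had an unadjusted p under 0.05 in the 5 comparisons. DESeq2 and limma called none of them either.

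Ordered by group means, hCAR/hPXR livers were highest for Serpina3m, Itih3, Itih4, Hpx, Cp and Serpina6. For Itih4 and Hpx the order was hCAR/hPXR, WT CITCO, Car KO/hPXR and WT corn oil, and the libraries of each group overlapped those of the next. For Serpina3m the order was hCAR/hPXR, Car KO/hPXR, WT corn oil and WT CITCO, with no overlap between Car KO/hPXR and WT corn oil. Serpina3n ran from WT CITCO through hCAR/hPXR and Car KO/hPXR to WT corn oil with overlap at each step. The order for Ttr was WT CITCO, WT corn oil, Car KO/hPXR and hCAR/hPXR, of which the last 2 did not overlap. Itih3, Cp, Alb, Trf and Serpina6 had overlap at every step. In the test for any difference among the 4 groups, edgeR gave 1 gene of the 10 an adjusted p under 0.05, where 1.42% of all genes tested passed. This was Serpina3m (adjusted p = 0.0130 in edgeR), while Hpx had 0.0562 and Itih4 0.0578. Without WT corn oil replicate 2 or WT CITCO replicate 1 the value for Serpina3m was 0.0502 and 0.0528, in a range of 1.14e-06 to 0.0528 over all alternatives. Hpx and Itih4 passed without WT CITCO replicate 3 (0.0196 and 0.0242) or hCAR/hPXR replicate 2 (0.00694 and 0.0155), in ranges of 4.31e-09 to 0.272 and 1.67e-07 to 0.277.

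A gene is called below when its adjusted p is under 0.05 and its fold change over 1.5. The 5 comparisons share libraries, so their values are set side by side and were not correlated. With CITCO given to both, hCAR/hPXR against WT livers gave 1 call among the 10 genes, Serpina3m, where 0.407% of all genes tested were. Its libraries were also the only ones of the 10 genes that did not overlap (1 of 10, against 13.6% of all genes). The median log2 difference was 0.56 over the 6 positive genes and -0.18 over the 4 negative genes, beside 0.01 over all genes tested. Without 1 library these ran from 0.33 to 0.75 and from -0.38 to -0.06. An unadjusted p under 0.05 was found for 4 of the 10, and for 757 of the 8594 genes tested.

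CITCO against corn oil in WT mice gave 0 calls among the 10 genes in edgeR, where 0.233% of all genes were called, with 3 at an unadjusted p under 0.05, as 785 of the 8594 genes had. DESeq2 and limma also called 0, with 2 at an unadjusted p under 0.05 in each. None of the 10 had libraries without overlap (0 of 10), which 14.7% of all genes had. The 3 genes in edgeR were Serpina3n, Itih4 and Hpx, with log2 differences of 0.68 (0.53 to 0.99 without 1 library), 0.58 (0.37 to 0.79) and 0.60 (0.36 to 0.85). Those of Itih4 and Hpx were lowest without WT CITCO replicate 1. Medians were 0.35 for positive genes (0.21 to 0.48 without 1 library), 0.09 for negative genes (0.0032 to 0.21) and -0.00 for all genes tested.

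Car KO/hPXR against WT, both given CITCO, gave 0 calls in edgeR (0.256% of all genes), with 1 gene at an unadjusted p under 0.05 (799 of all genes), and 1 call in DESeq2, both Serpina3m. Limma called 0, with 1 at an unadjusted p under 0.05. Without WT CITCO replicate 3 edgeR called 1, Serpina3m. Libraries did not overlap for 2 of 10 genes, Serpina3m above and Trf below, against 14.2% of all genes. Of the 6 positive genes 5 had negative differences, with a median of -0.20 (-0.30 to -0.12 without 1 library). The negative genes had a median of -0.11, which ran from -0.23 to 0.01 and was above 0 without WT CITCO replicate 3. The differences of Hpx and Itih4 were -0.57 and -0.46 with overlapping libraries, and without WT CITCO replicate 1 they were -0.33 and -0.25.

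Between hCAR/hPXR and Car KO/hPXR, edgeR called 0 of the 10 (0.582% of all genes), with 3 at an unadjusted p under 0.05 (913 of all genes). DESeq2 called 3, Itih3, Itih4 and Hpx, and limma called 0 with 3 at an unadjusted p under 0.05. Without hCAR/hPXR replicate 2, edgeR called the same 3 genes. For 4 of 10 genes the libraries did not overlap, against 15.1% of all genes: Itih4, Hpx and Serpina6 above and Ttr below. All 6 positive differences were above 0, with a median of 0.54 (0.39 to 0.74 without 1 library). The median of the negative genes was -0.06 and its sign turned with single libraries, to 0.07 without hCAR/hPXR replicate 1, 0.0019 without hCAR/hPXR replicate 2 and 0.0062 without Car KO/hPXR replicate 1, in a range of -0.17 to 0.07.

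In hCAR/hPXR livers against WT corn oil, 3 of the 10 genes were called, Serpina3m, Itih4 and Hpx, where 0.989% of all genes were called. An unadjusted p under 0.05 was found for 5 of the 10 and for 939 of all genes. DESeq2 called 4, adding Itih3, and limma called 2, without Hpx. Without hCAR/hPXR replicate 2 edgeR called Itih3, Itih4 and Hpx, without WT corn oil replicate 1 it called Serpina3m, and without any of the other 4 libraries it called 0. Libraries did not overlap for 5 of 10 genes, Serpina3m, Itih3, Itih4 and Hpx above and Ttr below, against 16.2% of all genes. Medians were 0.70 for positive genes (0.60 to 0.89 without 1 library), -0.16 for negative genes (-0.37 to -0.03) and 0.01 for all genes tested.

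**Figure D3:**
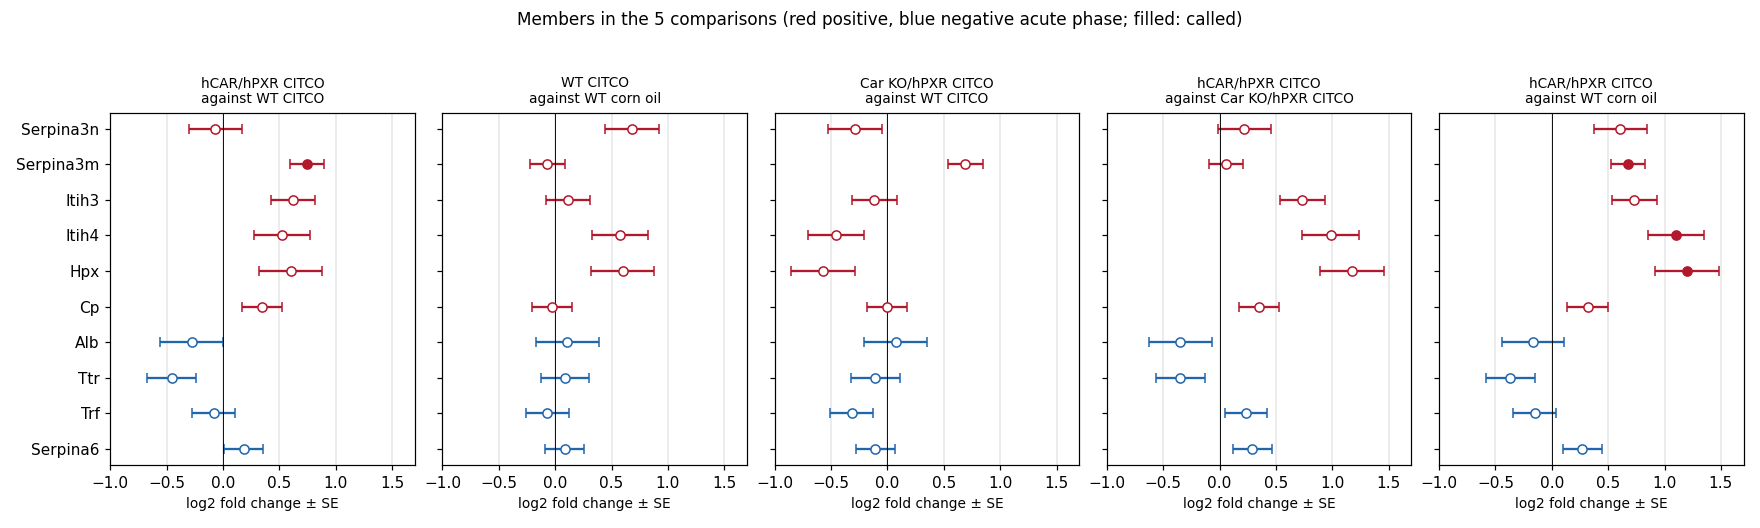
Log2 fold change with standard error (horizontal axes) of each of the 10 genes in the 5 comparisons (panels), red for positive and blue for negative acute phase genes, filled where called. Filled points are Serpina3m against WT CITCO (0.74) and Serpina3m, Itih4 and Hpx against WT corn oil (0.67, 1.10 and 1.20).

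To set positive against negative genes in each library, the mean log2 CPM of the 4 negative genes was subtracted from that of the 6 positive genes. The difference was -3.01, -2.96 and -3.26 in WT corn oil, -2.47, -2.78 and -3.20 in WT CITCO, -1.67, -2.59 and -2.34 in hCAR/hPXR and -2.94, -2.64 and -2.88 in Car KO/hPXR libraries. hCAR/hPXR replicates 1 and 3 had the highest differences, and WT CITCO replicate 1 came above hCAR/hPXR replicate 2. Group means were -3.08 ± 0.16, -2.82 ± 0.37, -2.20 ± 0.48 and -2.82 ± 0.16 in the same order (SD, n = 3 each). The mean of the positive genes alone ran from 8.80 ± 0.14 in WT corn oil to 9.54 ± 0.41 in hCAR/hPXR livers, and that of the negative genes from 11.92 ± 0.17 in WT CITCO to 11.74 ± 0.26 in hCAR/hPXR livers. The 3 hCAR/hPXR libraries had negative means of 11.52, 11.68 and 12.03, which span the means of the other groups.

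**Figure D4:**
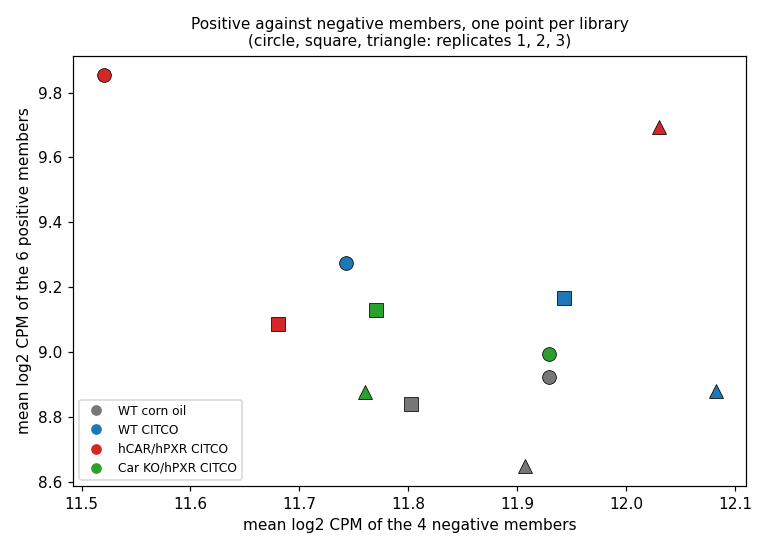
Mean log2 CPM of the 6 positive genes (vertical axis) against that of the 4 negative genes (horizontal axis), 1 point per library, with shapes for replicates 1, 2 and 3. hCAR/hPXR replicates 1 and 3 are highest on the vertical axis (9.85 and 9.69), and stand at 11.52 and 12.03 on the horizontal axis.

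For 1 positive and 1 negative gene of the 10, the genes outside the 10 most like them were listed. Those with the highest Pearson's r of log2 CPM with Serpina3n over the 12 libraries were C1qc (0.91), Adgre1 (0.90) and Golph3 (0.88). For Alb they were Wdr45 (0.88), Uox (0.86) and Trim44 (0.85). These values rank genes among 8594 and carry no test.

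A list of 24 other positive acute phase genes, of which 23 were tested, showed the setting of the 6. Between hCAR/hPXR and WT CITCO, edgeR called 3 of 23 higher (Saa4, Mt1 and Mt2), against 0.407% of all genes, with a median log2 difference of 0.74 and 16 at an unadjusted p under 0.05. The shares called and the counts at an unadjusted p over all genes, given above for each comparison, are the background of the lists that follow too. WT CITCO against WT corn oil gave 2 higher in edgeR, the serum amyloid genes Saa1 and Saa2 (0.233% of all genes), with a median of 0.41 and 9 at an unadjusted p under 0.05. Car KO/hPXR against WT CITCO gave 0 calls in edgeR (0.256% of all genes), with 6 at an unadjusted p under 0.05 and 2 calls in DESeq2, and a median of -0.23. hCAR/hPXR against Car KO/hPXR gave 8 higher in edgeR (Saa2, Saa4, Orm2, Hp, Lbp, Mt1, Mt2 and Steap4, median 1.27), against 0.582% of all genes, with 18 at an unadjusted p under 0.05. For hCAR/hPXR against WT corn oil, edgeR called 14 higher (Saa1 to Saa4, Orm1, Orm2, Hp, Fga, Fgb, Apcs, Lbp, Lcn2, Mt2 and Steap4, median 1.51), against 0.989% of all genes, with all 23 at an unadjusted p under 0.05. Of these 22 differed upward and Hamp downward (-1.23, adjusted p = 0.179 in edgeR), and Hamp had a negative difference in all 5 comparisons. Hamp was called against WT corn oil without hCAR/hPXR replicate 3 (-2.03, adjusted p = 0.00601 in edgeR) and without the filter on low counts, and in no other alternative. The most abundant gene of the list, C3, was called by edgeR in none of the 5.

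These counts moved with single libraries. In hCAR/hPXR against WT CITCO, 0 were called without any 1 of the 3 WT CITCO libraries or hCAR/hPXR replicate 1, and 2 without hCAR/hPXR replicate 3. The count for WT CITCO against WT corn oil was 4 without WT CITCO replicate 3 and 0 without any of the other 5 libraries, and that for Car KO/hPXR against WT CITCO was 3 without WT CITCO replicate 3. In hCAR/hPXR against Car KO/hPXR it was 3, 12 and 4 without hCAR/hPXR replicates 1, 2 and 3 and 2, 5 and 0 without Car KO/hPXR replicates 1, 2 and 3. Against WT corn oil it was 9, 5 and 3 without corn oil replicates 1, 2 and 3 and 6, 16 and 11 without hCAR/hPXR replicates 1, 2 and 3. Saa1 was low in the libraries that were low for Hpx and Itih4, with 2321 and 1828 CPM in WT CITCO replicates 1 and 2 and 78.1 in replicate 3, and 6565, 1075 and 1830.0 CPM in hCAR/hPXR replicates 1, 2 and 3. Not every gene of the list was. WT CITCO replicate 3 was the highest of its group for Lbp (60.3, 70.5 and 72.5 CPM) and Mt1 (86.9, 43.6 and 91.5), and hCAR/hPXR replicate 2 was not the lowest of its group for Saa4 (884, 635 and 499) or Hp (6134, 3183 and 3151).

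**Figure D5:**
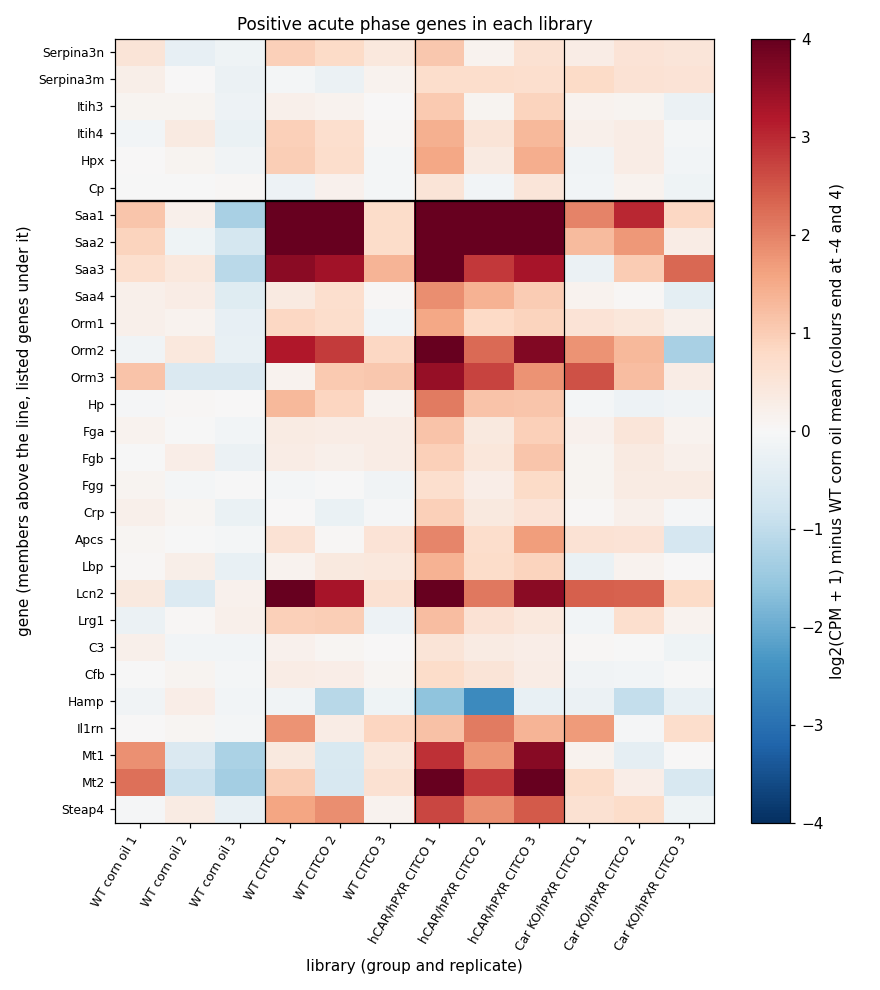
Log2 of CPM plus 1 minus the WT corn oil mean (colour) for the 6 positive genes above the line and the 23 tested genes of the list below it (vertical axis), in each library (horizontal axis, by group and replicate). WT CITCO replicate 3 is paler than replicates 1 and 2 for Saa1, at 78.1 CPM against 2321 and 1828.

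Relatives and partners of the 10 genes were read in the same 5 comparisons. Of 15 other Serpina3 and Serpina1 genes, 8 were tested and 0 called in edgeR, with at most 1 at an unadjusted p under 0.05 in a comparison. DESeq2 called 1, Serpina1e in Car KO/hPXR against WT CITCO, and Serpina3k was the most abundant. Of 5 other genes of the inter-alpha family, 4 were tested and 0 called in edgeR, with at most 1 at an unadjusted p under 0.05. In DESeq2 Ambp, the most abundant, was called against WT corn oil. Ambp encodes the precursor of bikunin, the light chain of these inhibitors.

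Among 13 other secreted serpins, 10 were tested and 1 was called. Serpina10, which encodes an inhibitor of coagulation factor X, had 648 ± 72.5 CPM in hCAR/hPXR and 336 ± 16.3 CPM in Car KO/hPXR livers (n = 3 mice each, SD). Its log2 fold change was 0.95 (adjusted p = 0.0119 in edgeR), with 3 of 3 libraries higher. Against WT corn oil (373 ± 56.0 CPM) it was 0.80 (adjusted p = 0.0207, edgeR). The first call was lost without hCAR/hPXR replicate 1 (0.0748) or Car KO/hPXR replicate 1 (0.0778) or 3 (0.0622), where the 6 fits that left out 1 library ran from 0.0142 to 0.0778. The second was lost without WT corn oil replicate 1 (0.121) or 2 (0.120) or hCAR/hPXR replicate 1 (0.136) or 3 (0.0554), in a range of 0.0253 to 0.136. Serpinc1, the most abundant of the list, was not called.

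Of 14 other plasma carriers 12 were tested, with Ahsg the most abundant, and Hp was the only one called. Hp encodes haptoglobin, which binds hemoglobin as hemopexin binds heme. Its log2 fold change was 1.66 in hCAR/hPXR against Car KO/hPXR (adjusted p = 0.00601, edgeR) and 1.51 against WT corn oil (adjusted p = 0.00722, edgeR). The first call was lost without Car KO/hPXR replicate 3 (0.0622), in a range of 0.00416 to 0.0622 over the 6 fits that left out 1 library, and the second without WT corn oil replicate 2 (0.0539) or 3 (0.0516), in a range of 0.00613 to 0.0539.

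All 10 other negative acute phase genes were tested, with Mup20 the most abundant, and their medians lay between -0.18 and 0.11. Apoa4 was lower in hCAR/hPXR livers when set against Car KO/hPXR (log2 fold change -1.40, adjusted p = 0.00510, edgeR) and kept this call without any 1 of the 6 libraries. With WT corn oil as the reference, edgeR called Apoa4 (-1.09, adjusted p = 0.0174) and Igf1 (-0.87, adjusted p = 0.00721) lower. The call of Apoa4 was lost without WT corn oil replicate 3 (0.138) or hCAR/hPXR replicate 2 (0.0857) or 3 (0.0782), in a range of 0.0214 to 0.138 over those fits. The call of Igf1 was lost without WT corn oil replicate 2 (0.0534), in a range of 0.00948 to 0.0534.

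Receptors and partners of the carriers (14 listed, 11 tested, Ftl1 the most abundant) gave 0 calls in edgeR, with 1 to 3 at an unadjusted p under 0.05 in each comparison, and 1 call in DESeq2, Slc40a1 in hCAR/hPXR against WT CITCO. Regulators of the acute phase response (16 listed, 14 tested, Cebpa the most abundant) gave 0 calls in edgeR, with 1 to 6 at an unadjusted p under 0.05. DESeq2 called 1 of them in Car KO/hPXR against WT CITCO (Junb), 2 in hCAR/hPXR against Car KO/hPXR (Stat3 and Cebpa) and 3 against WT corn oil (Stat3, Il1r1 and Cebpa). Stat3, chosen after its values were seen, had a log2 difference of 0.77 in hCAR/hPXR against Car KO/hPXR (adjusted p = 0.0691, edgeR). Cebpa differed in the other direction, by -0.64 there and by -0.61 against WT corn oil (adjusted p = 0.147 and 0.154, edgeR), and Il1r1 by 1.66 against WT corn oil (adjusted p = 0.0668).

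Markers of other cell types were read beside these results. The neutrophil list (6 genes, 2 tested) summed to 3.58, 6.35 and 6.04 CPM in WT corn oil, 9.73, 7.61 and 4.22 in WT CITCO, 34.7, 35.9 and 50.05 in hCAR/hPXR and 8.26, 11.7 and 7.39 in Car KO/hPXR libraries. S100a8 was its most abundant gene, and the defining markers Mpo, Ly6g, Retnlg and Csf3r had 0 counts in 11, 10, 8 and 6 of the 12 libraries. S100a8 was higher in hCAR/hPXR livers than in WT CITCO (log2 fold change 2.54, adjusted p = 0.00961), Car KO/hPXR (2.16, adjusted p = 0.0242) and WT corn oil livers (3.25, adjusted p = 0.00144) in edgeR. The call against WT CITCO was lost without WT CITCO replicate 3 (0.0535) or hCAR/hPXR replicate 2 (0.0510) or 3 (0.0640), in a range of 0.0119 to 0.0640 over 6 fits. The call against Car KO/hPXR was kept only without hCAR/hPXR replicate 1 (0.0362), and lost without hCAR/hPXR replicate 2 (0.0852) or 3 (0.107) or Car KO/hPXR replicate 1 (0.130), 2 (0.0605) or 3 (0.114). The call of S100a8 against WT corn oil was kept in all 6 fits, whereas S100a9, called there too (2.63, adjusted p = 0.0387 in edgeR), kept its call only without hCAR/hPXR replicate 2 (0.0223). It was lost without WT corn oil replicate 1 (0.144), 2 (0.172) or 3 (0.173) or hCAR/hPXR replicate 1 (0.215) or 3 (0.166). DESeq2 gave no adjusted p for S100a8 or S100a9, which its own filter on low counts removed, and so called neither. hCAR/hPXR replicate 2, low for Hpx and Itih4, was not low in this sum. The part of these cells in the levels of the 10 genes was not tested.

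The Kupffer cell list (7 genes, all tested) summed to 253, 288 and 216 CPM in WT corn oil, 391, 367 and 251 in WT CITCO, 418, 375 and 331 in hCAR/hPXR and 315, 296 and 302 in Car KO/hPXR libraries. Cd5l was its most abundant gene and none of the 7 was at 0 in any library. Marco was called higher in hCAR/hPXR than in WT corn oil livers (log2 fold change 1.82, adjusted p = 0.0202, edgeR), and the main edgeR fit called no other gene of the list. Cd5l was called there as well by DESeq2, and by edgeR with upper quartile size factors or without the filter on low counts. The call of Marco was lost without WT corn oil replicate 2 (0.1198) or 3 (0.1098) or hCAR/hPXR replicate 1 (0.0837) or 3 (0.1096), in a range of 0.0117 to 0.1198 over 6 fits. The list holds Adgre1, named above for its likeness to Serpina3n, and WT CITCO replicate 3 is low in this sum as it is for Hpx and Itih4. hCAR/hPXR replicate 2, low for both genes, lies above replicate 3, which is high for both. Whether the Kupffer cell markers have a part in the levels of the 10 genes was not tested. The sinusoidal endothelium list summed to between 173 and 228 CPM, the stellate cell list to between 167 and 343 and the cholangiocyte list to between 12.7 and 27.5. WT CITCO replicate 3 had the highest stellate cell sum and the lowest cholangiocyte sum. Lymphocyte markers summed to between 1.67 and 9.15 CPM, and none of the 6 passed the filter.

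The red blood cell list (5 genes, all tested, none at 0) summed to 3882, 3026 and 2298 CPM in WT corn oil, 3024, 3985 and 1987 in WT CITCO, 1995, 1859 and 2192 in hCAR/hPXR and 3424, 2614 and 2138 in Car KO/hPXR libraries, with Hba-a2 the most abundant. All 5 genes had negative log2 differences in hCAR/hPXR against WT CITCO (median -0.54), Car KO/hPXR (-0.34) and WT corn oil (-0.53), and edgeR, DESeq2 and limma each called only Alas2, with 3, 1 and 3 of the 5 at an unadjusted p under 0.05 in each tool. It was lower in hCAR/hPXR than in WT corn oil livers (log2 fold change -1.01, adjusted p = 0.0264, edgeR). The call of Alas2 was kept only without hCAR/hPXR replicate 2 (0.00454). It was lost without WT corn oil replicate 1 (0.0632), 2 (0.156) or 3 (0.0570) or hCAR/hPXR replicate 1 (0.159) or 3 (0.144). What part these cells have in the levels of the 10 genes was not tested.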

How the data were processed

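The deposited expected counts were made by the authors, who trimmed reads with Trimmomatic, aligned them with STAR 2.5.2 to GRCm38 (Ensembl release 89) and quantified them with RSEM 1.3, which divides reads that fit several genes. The deposited log2 values are the authors' variance-stabilising transformation of those counts in DESeq2.

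Expected counts, of which 13.8% of the nonzero values were not whole, were rounded here. Genes were kept by filterByExpr, scaled by TMM and tested in R 4.3.3 with edgeR 4.0.16 (quasi-likelihood, all 12 libraries, p-values adjusted by Benjamini-Hochberg over all genes tested). A gene was called at an adjusted p under 0.05 and a fold change over 1.5; the test among the 4 groups used the adjusted p only. Alternatives were other size factors, other filters, DESeq2 1.42.0, limma 3.58.1 on the transformed values, a replicate block, fits on only the groups compared and fits without 1 library. Genes named for likeness had the highest Pearson's r of log2 CPM. The steps were tested on simulated data. The 10 genes and the lists were chosen with earlier results of these data known.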

Additional observations from a re-analysis of the deposited data

How the results depend on the processing

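The 29 named tests had 425 values under alternatives. Of these, 369 kept their direction and their side of the threshold, 29 became weaker, 26 became stronger and 1 reversed. The tally leaves out the medians, given below. Becoming weaker means losing a call, so only tests called in the main fit could do so. Those were Serpina3m in hCAR/hPXR against WT CITCO and among the 4 groups, and Serpina3m, Itih4 and Hpx against WT corn oil. All other named tests, the summed Serpina3 genes among them, were uncalled in the main fit. Most of the 369 values belong to these uncalled tests and say little about how stable the calls were. The reversed value was the summed Serpina3 genes in hCAR/hPXR against WT CITCO, at 0.0687 without hCAR/hPXR replicate 3 (main value -0.10, range -0.35 to 0.0687 without 1 library), and the sum was called in none of the fits (0 to 0). The cause was not tested.

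Counts of the 10 genes called moved as well. Among the 4 groups (main count 1) they were 3 with upper quartile size factors, 4 without a filter, 4 with DESeq2 and 0 to 4 without 1 library. Car KO/hPXR against WT CITCO (main count 0) gave 1 without a filter, 1 with DESeq2 and 0 to 1 without 1 library. For hCAR/hPXR against Car KO/hPXR (main count 0) the counts were 3 without a filter, 3 with DESeq2 and 0 to 3 without 1 library. hCAR/hPXR against WT CITCO (main count 1) gave 0 when only the groups compared were fitted and 0 to 1 without 1 library. hCAR/hPXR against WT corn oil (main count 3) gave 4 without a filter and 4 with DESeq2, both adding Itih3, and 2 each with RLE size factors, the replicate block and limma, all losing Hpx. It gave 0 when only the groups compared were fitted and 0 to 3 without 1 library. WT CITCO against WT corn oil stayed at 0 in every fit. Fits of only the groups compared use 6 libraries in place of 12. For the other moves the cause was not tested.

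The list of other positive acute phase genes moved further, to 3 to 16 called without 1 library in hCAR/hPXR against WT corn oil (main count 14) and 0 to 12 in hCAR/hPXR against Car KO/hPXR (main count 8). Medians of the 4 negative genes changed sign without 1 library in Car KO/hPXR against WT CITCO (-0.11, range -0.23 to 0.01) and in hCAR/hPXR against Car KO/hPXR (-0.06, range -0.17 to 0.07). Medians of the 6 positive genes kept their sign in every comparison. The cause was not tested.

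With replicate number as a replicate block, Hpx in hCAR/hPXR against WT corn oil had a log2 difference of 1.20 and an adjusted p of 0.0547 in edgeR, where its alternatives ranged from 5.56e-07 to 0.227.

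Without a filter 20067 genes were tested, and 184, 179, 227, 233 and 261 were called in the 5 comparisons, in the order of hCAR/hPXR against WT CITCO, CITCO against corn oil in WT, Car KO/hPXR against WT CITCO, hCAR/hPXR against Car KO/hPXR and hCAR/hPXR against WT corn oil, beside 35, 20, 22, 50 and 85 in edgeR with the filter. Among the 4 groups the count was 540 beside 122. DESeq2 called 63, 42, 69, 96 and 127 in the 5 comparisons and 208 among the 4 groups. Fitting only the groups compared called 40 genes in Car KO/hPXR against WT CITCO.

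Libraries of 1167008 to 2341557 counts limit genes near the floor of 3 counts, which holds for most neutrophil and lymphocyte markers. With 3 mice per group, calls near the threshold rest on single libraries. The 12 deposited libraries hold corn oil mice of the WT genotype only.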
